A study of Mus musculus with 30 samples.

Results

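The livers compared here came from mice without a growth hormone receptor (arrays labelled KO, 3 arrays) and from mice with a receptor cut off at amino acid 391 (arrays labelled 391, 3 arrays). The 6 arrays were chosen by their labels alone, out of 30 arrays in the series and 15 arrays of liver. All 46643 probes were kept, and the comparison sets a receptor that keeps part of its tail against none. The series covers liver and subcutaneous fat in 5 genotypes, with 3 arrays each: wild type (WT), receptors cut at 569 or 391, a receptor mutated in Box1, and KO. The mice of every group were males of 4 months, killed after food was withheld overnight, per the labels. The mutants are described as knock-in mice, and the labels do not give the strain background, the construct of the deletion, or the cell types that carry it. Nothing in them ties the arrays of a group to different animals. The p-values therefore rest on the scatter among arrays, some or all of which may be technical. The 6 arrays shared 1 slide, with 391 in the first 3 positions and KO in the last 3, so that position and genotype cannot be told apart.

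Growth hormone acts on hepatocytes through a receptor dimer whose Box1 segment holds the kinase JAK2. JAK2 phosphorylates tyrosines along the receptor's tail, and the transcription factor STAT5 docks there, is activated, and drives Igf1 and many genes that differ between male and female liver. A receptor that ends early in its tail keeps Box1 but has lost most docking tyrosines, so signals of JAK2 that need no STAT5 docking remain possible. The receptor can also act through Src family kinases on ERK, without JAK2.

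The deposited value is a ratio of each probe to its own median over the 15 liver arrays, so it holds no absolute level and signal over background is unknown. Differences are KO minus 391 on the log2 scale, ± SE, from a limma fit over the 5 liver genotypes. A probe is called where its p, adjusted by Benjamini-Hochberg over all probes, is under 0.05. Array medians lay between 0.98 and 1.01. The Ghr probes gave no check of the labels: their positions in the gene are not given, and the KO ratios of the first, 1.51, 1.09 and 1.26, were not lower than those of 391 (0.68, 0.78 and 1.4). The lowest Ghr ratios of that probe, 0.3, 0.26 and 0.23, were those of the arrays labelled Box1.

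Some arrays stood apart or went against the labels, and this bears on all that follows. Transcripts of the exocrine pancreas stood high in 391 replicates 2 and 3: of 20 acinar markers, 18 and 16 exceeded 1 on the log2 scale, against 0 of 20 in each other liver array. The mean of the 20 markers was 3.00 and 2.23 there and between −0.09 and 0.18 elsewhere. Clps, the cofactor of pancreatic lipase, stood at ratios of 1.15, 56.85 and 16.4 in the 391 arrays. Skeletal muscle transcripts were present in 391 replicate 2 alone, with 10 of 12 markers above 1 and a mean of 3.40, against −0.07 to 0.04 in the other 14 liver arrays. Without 391 replicates 2 and 3 the count of called probes was 173, and 43 of the 84 called with them were among these. That fit leaves 1 array of 391, which is assumed to vary like the other groups, here and wherever both are left out below. The part of these tissues in the calls was not tested.

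**Figure D1:**
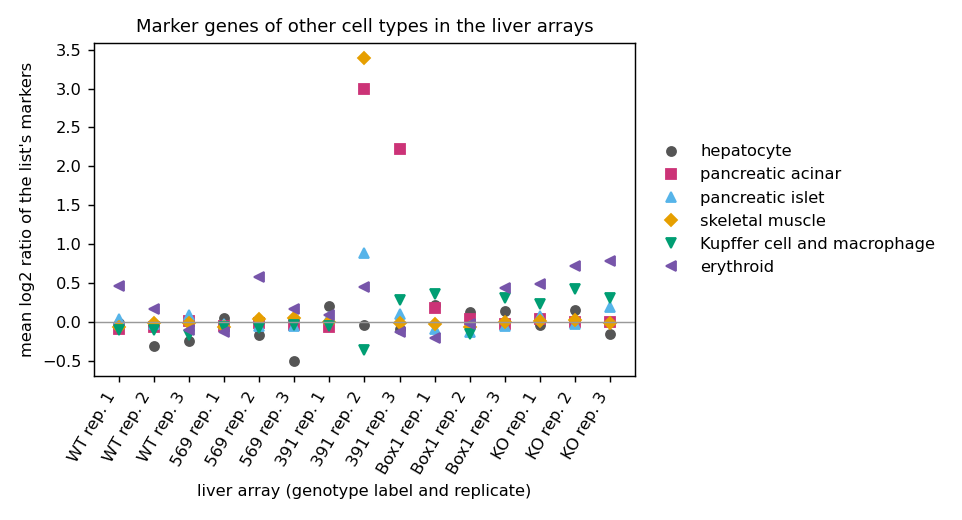
Mean log2 ratio of the marker genes of 6 cell types or tissues (y axis) in each of the 15 liver arrays (x axis), 1 point per list and array. The pancreatic acinar markers reach 3.00 and 2.23 in 391 replicates 2 and 3 and the skeletal muscle markers 3.40 in 391 replicate 2, while the hepatocyte markers lie between −0.51 and 0.22 in all arrays.

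Direction is a further caution, because the same contrast in fat ran the other way. Gdi2, which recycles Rab proteins, stood in liver at 1.26, 1.03 and 1.47 in 391 and at 0.13, 0.14 and 0.13 in KO. In fat the 391 arrays held the low values (0.15, 0.09 and 0.1) and the KO arrays the high ones (1.09, 1.04 and 1). The fat arrays labelled 391 thus carried the pattern of the liver arrays labelled KO for this probe, and many other called probes did likewise, as detailed after the gene groups. Whether the labels of 1 tissue were exchanged was not tested, and every direction below is as labelled.

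In liver 84 probes were called, 0.180% of those tested, 46 of them higher in KO (0.0986%) and 38 lower (0.0815%). They named 66 genes, 35 higher and 31 lower, and 45 probes differed by at least 2-fold, 28 up and 17 down. The KO and 391 arrays did not overlap in any of the 84, where 11.4% of all probes had no overlap. An unadjusted p under 0.05 was reached by 3819 probes, 8.19% of all. The count rested on single arrays: it was 27 without 391 replicate 2, 271 without 391 replicate 3, 37 without KO replicate 1 and 27 without KO replicate 2, with 27, 77, 30 and 25 of the 84 among them. All 84 kept their direction in each of the 6 refits without 1 array, and 17 kept their call in all 6. In a fit of the 6 arrays alone 35 probes were called, 25 of them shared.

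Among the called probes the KO arrays lay outside all other liver arrays more often than the 391 arrays did. In 57 of the 84 called probes the 3 KO arrays lay outside all other 12 liver arrays (1.12% of all probes did), above them in 33 of the 46 that rose and below them in 24 of the 38 that fell. The 391 arrays lay outside the other 12 in 9 of the 84 (0.637% of all probes did). The Box1 mean was nearer to 391 than to KO in 78 of the 84, against 53.1% over all probes. The WT mean was nearer to 391 in 64 (50.2% over all probes) and the 569 mean in 51 (23315 of all 46643 probes). These placements are descriptions, since the WT, 569 and Box1 livers lay on other slides. The 84 were also picked for a difference between KO and 391, which by itself raises such shares over those of all probes. The 391 arrays had the wider spread around their group mean, 0.16 to 0.17 on the log2 scale against 0.12 to 0.14 in KO.

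Among the called probes with a gene name that fell in KO, the largest change was that of Cdkn1a, which encodes the cyclin-dependent kinase inhibitor p21. Its ratios were 3.33, 6.33 and 1.85 in 391 and 0.32, 0.39 and 0.27 in KO. The difference was −3.39 ± 0.58 (adjusted p = 0.029), a 391 level 10.5 times that of KO, and its second probe gave −3.09 ± 0.60 (adjusted p = 0.056). The KO arrays overlapped those of WT (0.58, 0.51 and 0.27). The Box1 arrays stood at 1.65, 1.04 and 1.41, and the 569 arrays were spread, at 2.31, 1 and 0.28. The Cdkn1a call was lost in 5 of the 6 refits without 1 array, the exception being that without 391 replicate 3, with adjusted p from 0.055 to 0.14.

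Gdi2 had the smallest p, with a difference of −3.22 ± 0.16 (adjusted p = 1.8e-07). Its other probes, at 0.06 and 0.07, did not pass the test. Sugct, which transfers coenzyme A to glutarate, stood at 1.26, 1 and 1.05 in 391 and at 0.16, 0.16 and 0.18 in KO, a difference of −2.72 ± 0.20 (adjusted p = 1.1e-05). A1cf, the RNA-binding partner of the apolipoprotein B editing enzyme, stood at 1.86, 1.13 and 1.13 in 391 and at 0.24, 0.23 and 0.26 in KO. Its difference was −2.46 ± 0.16 (adjusted p = 2.9e-06). In these 3 genes the KO arrays lay far below all other liver arrays and close to each other.

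H1f2, a linker histone, stood at 1, 3.03 and 1.14 in 391 and at 0.27, 0.23 and 0.29 in KO, with a difference of −2.53 ± 0.33 (adjusted p = 0.0048). Pttg1, a securin that delays the separation of sister chromatids, stood at 1, 1.07 and 1.01 against 0.38, 0.39 and 0.38. That difference was −1.42 ± 0.15 (adjusted p = 0.00087). The replicates of Pttg1 were almost level within each group. The calls of Gdi2, Sugct, A1cf, H1f2 and Pttg1 held in all 6 refits without 1 array, which keep the other genotypes. In the fit of the 6 arrays alone H1f2 did not pass (adjusted p = 0.081), while Gdi2, Sugct, A1cf and Pttg1 did (up to 0.0041).

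**Figure D2:**
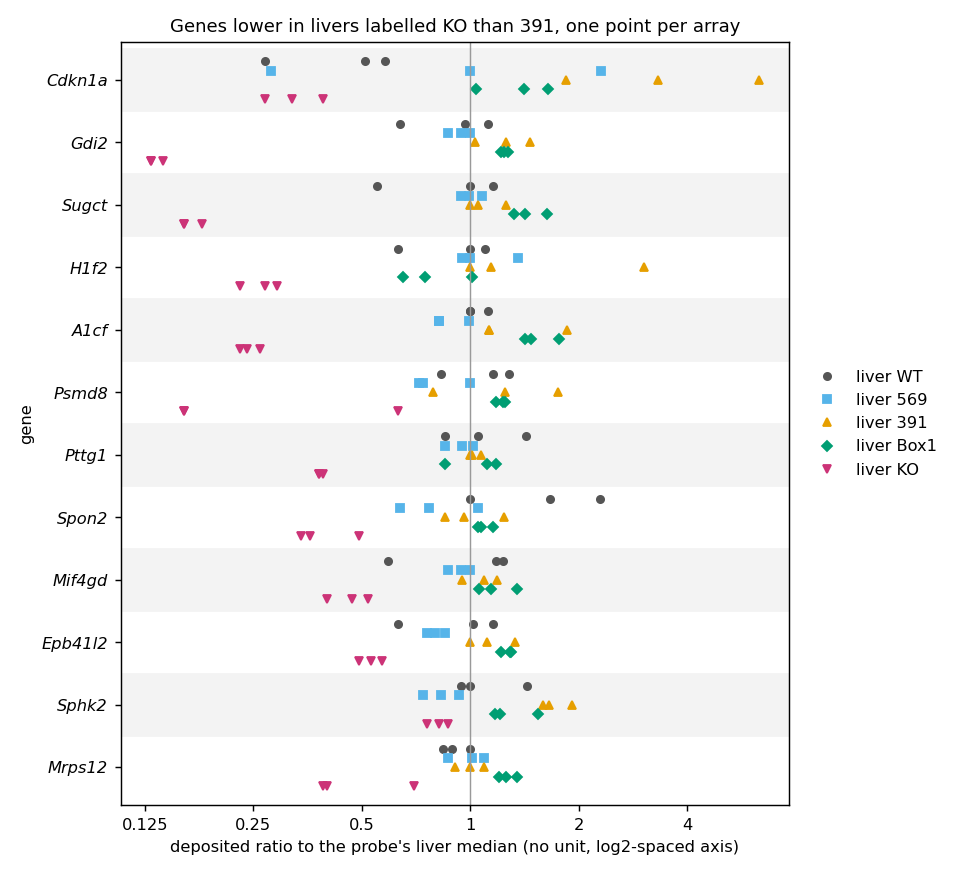
Deposited ratio of each array (x axis, log2-spaced, no unit) for the 12 called genes with the largest fall in KO (y axis). Each gene is shown by its probe with the smallest p, 1 point per liver array of the 5 genotypes. The KO points lie left of all 391 points in each gene, at 0.13 to 0.14 against 1.03 to 1.47 for Gdi2, and Psmd8 and Mrps12 each have 1 KO array that stands apart from the other 2.

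Psmd8, a subunit of the proteasome's regulatory particle, and Mrps12, a protein of the mitochondrial ribosome, both lie on chromosome 7 in the RefSeq annotation. Psmd8 stood at 1.75, 1.25 and 0.79 in 391 and at 0.16, 0.16 and 0.63 in KO, and Mrps12 at 1, 1.09 and 0.91 against 0.4, 0.39 and 0.7. KO replicate 3 was the highest KO array in both. The differences were −2.25 ± 0.41 for Psmd8 (adjusted p = 0.041) and −1.06 ± 0.17 for Mrps12 (adjusted p = 0.024). Without KO replicate 3 they were −2.91 (adjusted p = 9.3e-05) and −1.34 (adjusted p = 8.3e-05). Psmd8 lost its call without 391 replicate 1 or 2 or KO replicate 1 or 2 (adjusted p up to 0.20), and Mrps12 without 391 replicate 2 or KO replicate 1 or 2 (up to 0.12).

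Another 3 genes of chromosome 7, picked after their values were seen, had KO replicate 3 apart in liver, while the called Cox6b2, Cyp2a4, Sphk2 and Sult2a8 of that chromosome did not. Apoc2, the activator of lipoprotein lipase, stood at 1.94, 1.6 and 0.7 in 391 and at 0.13, 0.14 and 0.71 in KO, which overlap (−2.46 ± 0.49, adjusted p = 0.065). Cyp2b13, a steroid-hydroxylating cytochrome of female liver, stood at 67.35, 31.63 and 46.73 in 391 and at 0.78, 0.71 and 77.18 in KO. Cyp2b9, its close relative, stood at 5.34, 2.87 and 2.84 against 0.08, 0.1 and 3.4. KO replicate 3 lay within or above the 391 range in these 3 genes, and the other KO arrays far below it. Neither Cyp2b9 nor Cyp2b13 passed the test (adjusted p = 0.22 and 0.33), and near-identical Cyp2b copies may share a probe.

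The remaining named falls were smaller, and each of these genes had further probes that did not pass the test. Spon2, a secreted matrix protein, stood at 0.96, 1.24 and 0.85 in 391 and at 0.49, 0.34 and 0.36 in KO (−1.36 ± 0.25, adjusted p = 0.045). Mif4gd, which takes part in histone mRNA translation, stood at 0.95, 1.09 and 1.19 against 0.47, 0.52 and 0.4 (−1.22 ± 0.21, adjusted p = 0.033). Epb41l2, a cytoskeletal protein of the band 4.1 family, stood at 1.33, 1 and 1.11 against 0.53, 0.49 and 0.57 (−1.11 ± 0.17, adjusted p = 0.018). Groups did not overlap in any of these. Sphk2, a kinase that makes sphingosine 1-phosphate, stood at 1.92, 1.66 and 1.59 in 391, above every other liver array, and at 0.87, 0.76 and 0.82 in KO, inside the range of WT and 569 (−1.07 ± 0.15, adjusted p = 0.0090). The second probe of Spon2 gave 0.02, that of Mif4gd −0.30, those of Sphk2 0.09 and −0.05, and the other 4 of Epb41l2 between −0.04 and 0.21. Mrps12 also had a second probe, at −0.58 (adjusted p = 0.27). Without 1 array Spon2 lost its call in 5 refits, all but that without 391 replicate 3 (up to 0.20), and Mif4gd in 4, those without 391 replicate 2 or any KO array (up to 0.13). Epb41l2 lost it without KO replicate 1 or 2 (0.067 and 0.083) and Sphk2 without KO replicate 2 (0.059).

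Among the called probes, the largest rise in KO was that of Ugt1a10, a glucuronosyltransferase that conjugates bilirubin-like and foreign compounds. Its ratios were 0.99, 0.91 and 0.89 in 391 and 4.53, 4.06 and 4.67 in KO, with a difference of 2.25 ± 0.38 (adjusted p = 0.028). WT replicate 3 stood at 4.37, with the KO arrays, while the other WT arrays stood at 1.01 and 0.97. Cptp, a ceramide-1-phosphate transfer protein, had the same pattern, at 0.93, 0.91 and 0.89 in 391, 3.14, 2.92 and 3.42 in KO and 2.98 in WT replicate 3 (1.79 ± 0.29, adjusted p = 0.024). The other probes of Ugt1a10, at 0.18 and 0.15, and of Cptp, at −0.25, did not pass the test. Ugt1a10 lost its call in 5 refits, all but that without 391 replicate 3 (0.050 to 0.12), and Cptp in 4, those without 391 replicate 2 or any KO array (0.073 to 0.10).

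Ces3a and Ces3b, carboxylesterases of hepatocyte lipid stores, rose together. Ces3a stood at 0.17, 0.26 and 0.29 in 391 and at 1.79, 0.5 and 1 in KO, a difference of 2.04 ± 0.34 (adjusted p = 0.027). Ces3b stood at 0.19, 0.28 and 0.31 in 391 and at 1.52, 0.59 and 1 in KO, a difference of 1.92 ± 0.31 (adjusted p = 0.024). Both groups lay below the WT arrays, which held 8.43, 7.78 and 9.36 of Ces3a and 10.84, 8.57 and 12.17 of Ces3b. As near-identical copies the 2 genes may share a probe, and a second probe of Ces3b gave 0.16. Each lost its call in 4 refits, those without 391 replicate 1 or 2 or KO replicate 1 or 3, with adjusted p from 0.054 to 0.096.

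BC018473, a transcript of unstated function, stood at 0.9, 1 and 0.96 in 391 and at 2.77, 4.22 and 4.15 in KO (1.94 ± 0.14, adjusted p = 1.1e-05). Abhd1, of the alpha/beta hydrolase family, stood at 1.19, 1.84 and 1.36 against 5.32, 4.83 and 5.48 (1.85 ± 0.18, adjusted p = 0.00022). Its second probe was called as well, at 1.43 ± 0.16 (adjusted p = 0.0015). Asic5, an ion channel opened by bile acids, stood at 1, 1.03 and 0.92 against 3.52, 3.66 and 3.18 (1.81 ± 0.24, adjusted p = 0.0049). Ppfibp1, a liprin-binding protein, stood at 1.09, 0.99 and 0.81 against 2.77, 2.91 and 2.57 (1.52 ± 0.12, adjusted p = 3.3e-05). In all of these the KO arrays lay above every other liver array. Krt72, a keratin, stood at 0.42, 0.75 and 0.69 in 391 and at 1.79, 1.58 and 1.58 in KO (1.45 ± 0.19, adjusted p = 0.0047). The calls of these 5 genes held in all 6 refits, but the second probe of BC018473 gave 0.15 and those of Ppfibp1 0.16 and −0.10. In the fit of the 6 arrays alone Krt72 (adjusted p = 0.066) and the second probe of Abhd1 (0.062) did not pass. BC018473, the first probe of Abhd1, Asic5 and Ppfibp1 did (up to 0.0055).

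**Figure D3:**
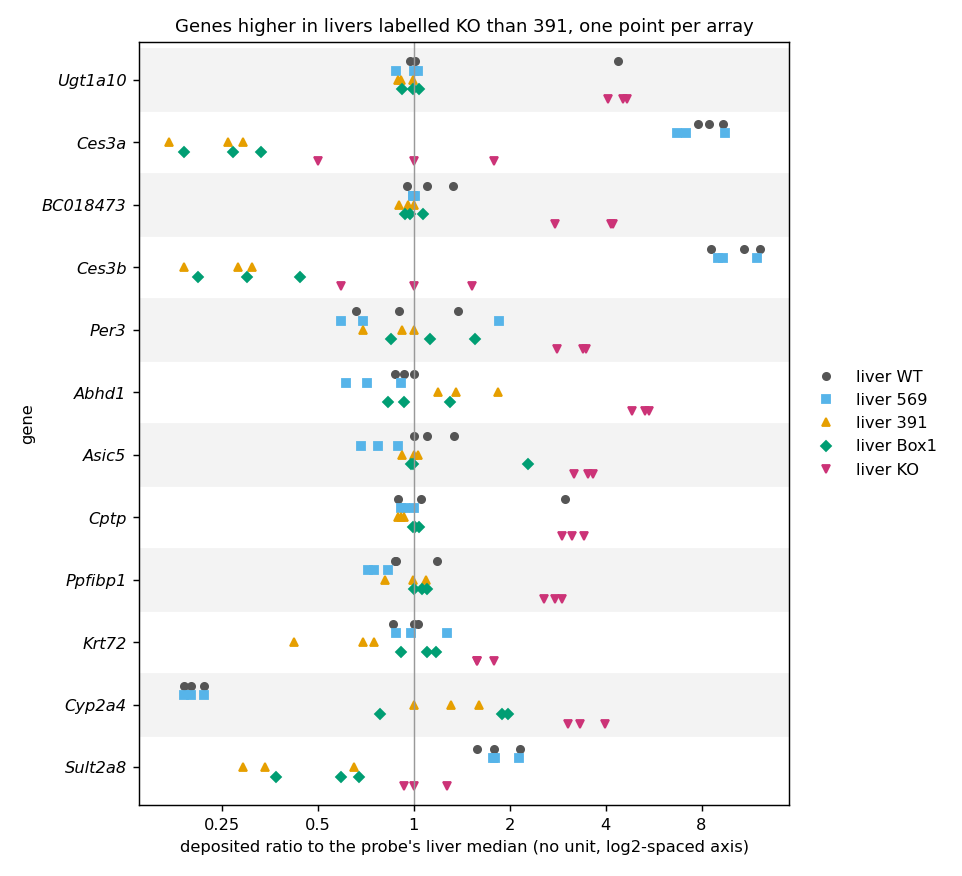
Deposited ratio of each array (x axis, log2-spaced, no unit) for the 12 called genes with the largest rise in KO (y axis). Each gene is shown by its probe with the smallest p, 1 point per liver array of the 5 genotypes. The KO points lie right of all 391 points in each gene, at 4.06 to 4.67 against 0.89 to 0.99 for Ugt1a10, while Ces3a and Ces3b have the WT and 569 arrays far to the right of both.

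Many calls rested on 1 probe of their gene. Of the 66 called genes 42 had more than 1 probe, and in 3 of these more than 1 was called. Of the 62 other probes, 40 had the sign of the called probe, 13 also with KO and 391 arrays that did not overlap. Over all 46643 probes 23198 were higher in KO and 23440 lower, and 11.4% had no overlap in either order. Their median absolute difference was 0.14, against 1.01 for the 84 called probes. Probe sequences were not analysed here, so what distinguishes the probes of a gene was not tested.

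Genes of the growth hormone axis did not pass the test in this comparison: of 25 measured members of the list, 0 were called and 4 had an unadjusted p under 0.05. Igf1, the hormone that mediates growth, came nearest. Its ratios were 0.44, 0.43 and 0.61 in 391 and 1, 1.15 and 0.68 in KO, against 20.72, 18.39 and 18.92 in WT. The groups did not overlap, and the difference was 0.92 ± 0.18 (adjusted p = 0.060, 95% interval 0.54 to 1.30), with KO the higher. It passed without 391 replicate 3 (1.08, adjusted p = 0.016) and without KO replicate 3 (1.14, adjusted p = 0.012). The second probe gave 0.48 ± 0.14 (adjusted p = 0.28).

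Igfals, the subunit that keeps IGF1 in the circulation, stood at 0.69, 0.82 and 0.67 in 391 and at 1, 1.08 and 0.82 in KO, which meet at 0.82 (0.41 ± 0.22, interval −0.06 to 0.88). WT arrays held 14.71, 14.27 and 12.01. The feedback inhibitors Socs2 and Cish, which STAT5 induces, differed by 0.21 ± 0.43 (interval −0.71 to 1.12) and 0.18 ± 0.43 (interval −0.73 to 1.10), and their KO and 391 arrays overlapped. The other Socs2 probes gave 0.13 and 0.02. These intervals allow differences of up to about 2-fold, so a p that misses the threshold does not show equal levels. They use 1 estimate of spread shared by the 5 genotypes. For Cish the SD on the log2 scale was 1.06 in WT and 0.93 in 569, against 0.09 in 391 and 0.11 in KO. For the first Socs2 probe it was 0.996 and 0.85, against 0.29 and 0.26. The width of these 2 intervals thus owes much to WT and 569.

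Igfbp3, the main carrier of IGF1, stood at 0.75, 0.83 and 0.79 in 391 and at 1.11, 1.98 and 1.12 in KO (0.77 ± 0.19, adjusted p = 0.17), and its second probe gave 0.57 (adjusted p = 0.27). Igfbp1, which insulin represses and fasting raises, stood at 6.1, 1.72 and 1 against 0.64, 1.56 and 0.66 (−1.33 ± 0.81, adjusted p = 0.73). Igfbp2 differed by −0.15 ± 0.24, and Igfbp4 by 0.39 ± 0.17 (adjusted p = 0.57). The first Ghr probe gave 0.49 ± 0.23 (adjusted p = 0.61) and the second 0.04 ± 0.32.

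**Figure D4:**
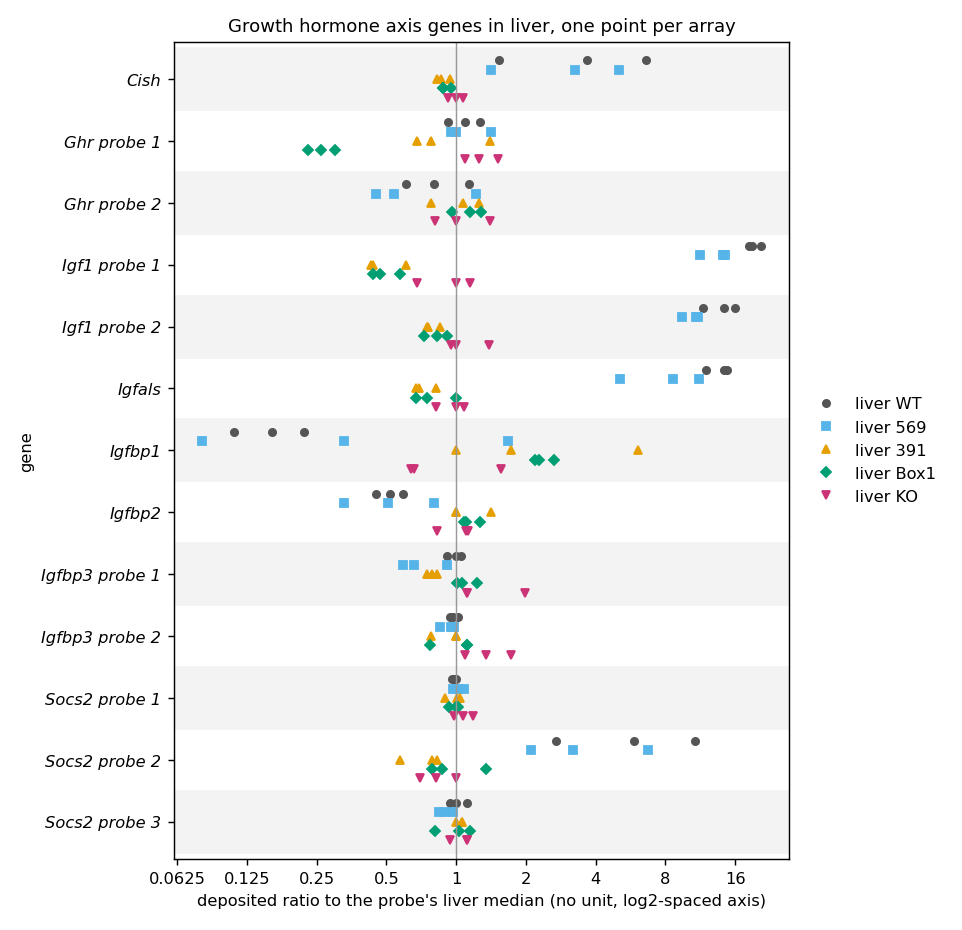
Deposited ratio of each array (x axis, log2-spaced, no unit) for all probes of 8 growth hormone axis genes (y axis), 1 point per liver array of the 5 genotypes. Igf1, Igfals, Cish and the Socs2 probe with WT ratios of 5.85, 2.7 and 10.71 have 391, Box1 and KO together on the left and WT and 569 on the right, and for the first Igf1 probe the KO points (0.68 to 1.15) lie just right of the 391 points (0.43 to 0.61).

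Genes that differ between male and female liver, textbook targets of STAT5, gave 3 calls, all up in KO. Over all probes the median difference was −0.00059, and the medians of the gene lists are read beside it. Of 25 measured male-biased genes 1 rose (Ces3b), 0 fell, 17 were higher and the median was 0.12. Without 391 replicates 2 and 3 the median was 0.0083, with 13 higher. C8a, a complement component, stood at 0.5, 0.77 and 0.73 in 391 and at 1.34, 0.95 and 1 in KO (0.73 ± 0.18, adjusted p = 0.19). Csad, which makes taurine, had the other sign, −1.14 ± 0.29 (adjusted p = 0.19), and C4a gave 0.40 ± 0.13 (adjusted p = 0.36). Of 28 measured female-biased genes 2 rose and 0 fell, while 12 were higher, 16 were lower and the median was −0.02. Without 391 replicates 2 and 3 the median was −0.07, with 19 lower. The list also holds Cyp2b9 and Cyp2b13, given above, whose KO replicates 1 and 2 lay far below the 391 arrays. Cyp2a4, a steroid 15-alpha-hydroxylase that may share probes with its paralogue, stood at 1.6, 1.31 and 1 in 391 and at 3.98, 3.33 and 3.04 in KO. The difference was 1.42 ± 0.27 (adjusted p = 0.047), its second probe gave 0.68, and WT arrays held 0.22, 0.19 and 0.2. Hao2, a peroxisomal hydroxyacid oxidase, stood at 1, 0.92 and 1.3 against 2.45, 1.88 and 2.18 (1.02 ± 0.17, adjusted p = 0.024). Each lost its call in refits without 1 array. For Cyp2a4 these were 5, all but that without 391 replicate 1 (0.071 to 0.21), and for Hao2 those without 391 replicate 1 or 2 or KO replicate 1 or 3 (0.054 to 0.12).

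Sult2a8, a sulphotransferase of bile acids outside both lists, stood at 0.34, 0.29 and 0.65 in 391, at 1, 0.93 and 1.27 in KO and at 1.79, 1.58 and 2.16 in WT. The KO arrays lay between those of 391 and WT, as for Ces3a and Igf1. Its difference was 1.40 ± 0.26 (adjusted p = 0.045), and the call was lost in 5 refits, all but that without 391 replicate 3 (0.10 to 0.20).

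Among 44 measured glutathione and xenobiotic enzymes 0 were called, 18 had an unadjusted p under 0.05, 28 were higher in KO, and the median was 0.18. Ugt2b1 gave 0.65 ± 0.14 (adjusted p = 0.11), Cyp2c54 1.14 ± 0.27 (adjusted p = 0.14), Ces1g 0.74 ± 0.17 (adjusted p = 0.14) and Aox3 0.95 ± 0.30 (adjusted p = 0.35). The KO and 391 arrays of Cyp2c54, 1.43, 1 and 0.86 against 0.49, 0.6 and 0.39, did not overlap, and WT arrays lay higher still, at 1.84, 2.52 and 2.83.

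Clock genes, the feedback loop of transcription factors that keeps daily time, gave 1 call among 18 measured, and 10 of the 18 had an unadjusted p under 0.05. Per3, a repressor of the loop, stood at 1, 0.69 and 0.92 in 391 and at 3.39, 2.81 and 3.46 in KO (1.90 ± 0.36, adjusted p = 0.047), and its other probes gave 0.46 and 0.10. Tef, an output factor, stood at 1.02, 0.64 and 1 against 1.89, 1.85 and 1.84 (1.10 ± 0.22, adjusted p = 0.075). Nfil3, a repressor that peaks in antiphase to Tef, stood at 1.93, 1.16 and 1.03 against 0.41, 0.43 and 0.45 (−1.62 ± 0.31, adjusted p = 0.056). Clock gave −0.69 ± 0.17 (adjusted p = 0.18). In Per3, Tef and Nfil3 the groups did not overlap. The labels give no hour of killing, and its part was not tested. The Per3 call was lost in 5 refits, all but that without 391 replicate 3 (0.063 to 0.20), and with 1 array of 391 left the list had 3 members called.

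Growth signalling through ERK, which needs no STAT5 docking, is read through its feedback targets. Of 18 measured, 1 fell (Dusp4) and the median was 0.02. Dusp4, a phosphatase that ERK induces and that switches ERK off, stood at 1.71, 1.34 and 1.29 in 391 and at 0.76, 0.93 and 0.91 in KO (−0.73 ± 0.12, adjusted p = 0.027). The WT arrays of Dusp4, 1.03, 0.82 and 0.99, overlapped KO and lay below all 391 arrays, and so did those of 569, at 1, 0.83 and 0.97. The Box1 arrays, at 1.28, 1.27 and 1.33, overlapped 391 and lay above all KO and WT arrays. Phlda1 had the other sign, 1.49 ± 0.38 (adjusted p = 0.18), Ier3 gave −0.53 ± 0.15 (adjusted p = 0.26) and Etv1 −0.21 ± 0.11. The Dusp4 call was lost in 5 refits, all but that without 391 replicate 3 (0.054 to 0.13). Of 24 immediate early genes 0 were called, 18 were lower in KO and the median was −0.16: Btg2 gave 0.24, Atf3 −0.76, Klf6 −0.53 and Egr3 0.16.

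Cell cycle genes, 27 measured, had 1 call, Cdkn1a, with 14 higher, 13 lower and a median of 0.01. Cdk2, the kinase that p21 inhibits, stood at 0.71, 0.64 and 0.86 in 391 and at 1.01, 1.02 and 1.05 in KO (0.49 ± 0.14, adjusted p = 0.28). Its partner cyclin Ccne1 gave 0.26 ± 0.09 and Ccnd2 0.46 ± 0.19.

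Replication-dependent H2A histone genes made up 7 of the called probes, of 6 genes, all higher in KO by 0.76 to 1.15. These near-identical copies lie in the histone cluster of chromosome 13, may be read by each other's probes, and were picked out after their values were seen. H2ac10 stood at 0.71, 0.73 and 0.77 in 391 and at 1.31, 1.52 and 2.2 in KO, and H2ac11 at 0.7, 0.71 and 0.85 against 1.27, 1.42 and 2.23. KO replicate 3 was the highest of the KO arrays, and in both genes all KO arrays lay above every other liver array. This was not so in H2ac13, H2ac15, H2ac22 and H2ac24, where at least 1 array of WT or 569 reached the lowest KO array. The WT arrays of H2ac10 (1.22, 0.89 and 0.71) overlapped those of 391. Of all 28 H2ac probes 19 were higher in KO, where 23198 of all 46643 probes were, and their median was 0.11. In 9 of the 28 the KO and 391 arrays did not overlap, in either order, against 11.4% of all probes. Each call of H2ac10 and H2ac11 was lost in 4 of 6 refits without 1 array. The 250 bases before the start of 3 of these genes are shown because all 6 called H2ac genes hold the CCAAT box there, the pentamer that nuclear factor Y binds. They are RefSeq sequences of GRCm38.p6, 5′ to 3′ on the gene's strand, with CCAAT and its reverse complement ATTGG in capitals: H2ac10 at chr13:23533625-23533874 (plus strand), H2ac11 at chr13:22042950-22043199 (minus strand) and H2ac13 at chr13:21716162-21716411 (plus strand).
H2ac10: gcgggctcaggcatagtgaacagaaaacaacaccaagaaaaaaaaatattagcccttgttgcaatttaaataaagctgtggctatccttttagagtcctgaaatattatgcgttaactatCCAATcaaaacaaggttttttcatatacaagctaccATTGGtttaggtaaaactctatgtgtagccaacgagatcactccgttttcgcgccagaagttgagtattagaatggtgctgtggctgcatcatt
H2ac11: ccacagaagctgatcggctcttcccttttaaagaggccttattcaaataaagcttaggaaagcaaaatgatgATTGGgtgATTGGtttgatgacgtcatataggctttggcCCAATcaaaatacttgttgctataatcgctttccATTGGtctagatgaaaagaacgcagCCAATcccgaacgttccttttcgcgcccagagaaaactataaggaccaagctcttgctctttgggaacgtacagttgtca
H2ac13: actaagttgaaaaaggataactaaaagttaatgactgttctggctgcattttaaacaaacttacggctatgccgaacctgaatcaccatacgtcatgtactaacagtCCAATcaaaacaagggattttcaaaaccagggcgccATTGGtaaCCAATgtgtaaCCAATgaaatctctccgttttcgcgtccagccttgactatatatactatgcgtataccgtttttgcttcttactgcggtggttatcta
H2ac10 holds 2 copies, H2ac11 5 and H2ac13 4. Counting either strand, CCAAT was found before 32 of 57 called genes with an entry (56.1%) and before 39.1% of 15526 measured genes. A match describes the letters alone.

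The letters TTCNNNGAA, which STAT5 prefers, were sought in the same window as the axis makes them of interest. They read the same on both strands. They were found before 6 of 57 called genes (10.5%) and before 7.79% of 15526 measured genes. Of these 6, Slc22a26, an organic anion transporter of the liver, had the largest change: 0.95, 1.5 and 1 in 391 and 2.6, 3.8 and 2.01 in KO (1.27 ± 0.20, adjusted p = 0.021). Its groups did not overlap, and the KO arrays lay above every other liver array. The call was lost in 2 of 6 refits without 1 array (up to 0.066). The window is chr19:7802668-7802917 of GRCm38.p6 (minus strand, RefSeq), with the match in capitals.
Slc22a26: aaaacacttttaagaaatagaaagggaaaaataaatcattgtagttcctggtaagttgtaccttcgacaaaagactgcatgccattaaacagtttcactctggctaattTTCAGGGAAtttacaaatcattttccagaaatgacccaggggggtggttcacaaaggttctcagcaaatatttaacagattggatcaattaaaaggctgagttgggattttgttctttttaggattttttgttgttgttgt

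Macrophage markers, interferon response genes and complement genes were mostly higher in KO, while 7 of 9 neutrophil markers and 19 of 25 acute phase genes were lower. Over all probes 23440 of 46643 were lower, and 0 of the 9 neutrophil markers had an unadjusted p under 0.05. Of 15 measured Kupffer cell and macrophage markers 14 were higher in KO, 1 was called, and the median was 0.33. The array means of this list were 0.23 to 0.43 in KO, −0.37 to 0.27 in 391 and −0.17 to 0.36 in the other livers. Timd4, a receptor for dying cells on resident Kupffer cells, stood at 0.96, 0.79 and 1.29 in 391 and at 1.86, 1.99 and 1.78 in KO (0.92 ± 0.15, adjusted p = 0.025), above all other liver arrays. Clec4f, a Kupffer cell lectin, gave 0.72 ± 0.19 (adjusted p = 0.19), Aif1 0.66 and Mpeg1 0.69. More cells of a type and more RNA per cell cannot be told apart in bulk liver. Without 391 replicates 2 and 3 the list's median was 0.36. Timd4 lost its call in 5 of 6 refits without 1 array (adjusted p up to 0.12).

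Of 40 measured genes of the interferon response and antigen presentation 0 were called, 33 were higher in KO and the median was 0.27. Ifit3 gave 0.54 ± 0.14 (adjusted p = 0.19), Irgm1 0.68 ± 0.19, Usp18 0.82 ± 0.23 and Mx2 0.42 ± 0.13. Eif2ak2, the interferon-induced kinase PKR and no member of the list, was called, at 1.05, 0.88 and 0.89 in 391 and 1.79, 1.94 and 1.5 in KO (0.89 ± 0.14, adjusted p = 0.024), a call lost in 3 of 6 refits without 1 array (up to 0.12). Of 36 complement and coagulation genes 0 were called, 29 were higher and the median was 0.22. Masp2, a protease that starts the lectin pathway, stood at 1.1, 0.95 and 0.93 against 1.64, 1.63 and 1.67 (0.73 ± 0.15, adjusted p = 0.077). C8b gave 0.79 ± 0.20 (adjusted p = 0.18), and Serpinc1, antithrombin, had the other sign at −0.61 ± 0.17 (adjusted p = 0.25). Among 25 acute phase proteins 0 were called, 19 were lower and the median was −0.09, with Il1rn at 0.36, Saa4 at 1.11, Lbp at −0.71 and Hp at −0.34. The part of the macrophage markers in these shifts was not tested.

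Cytosolic ribosomal proteins and genes of the endoplasmic reticulum stress response were mostly lower in KO, with 0 calls in either list. Of 59 cytosolic ribosomal proteins 52 were lower in KO, with a median of −0.18. Rps9 stood at 1.28, 1.28 and 1.05 in 391 and at 0.5, 0.68 and 0.72 in KO (−0.94 ± 0.18, adjusted p = 0.060). Rpl27a gave −0.40, Rps3 −0.45 and Rpl31 −0.38. Of 21 genes of the endoplasmic reticulum stress response 20 were lower, with a median of −0.21. Xbp1, a factor of secretory cells, stood at 1, 0.95 and 1.04 against 0.67, 0.67 and 0.69 (−0.56 ± 0.13, adjusted p = 0.14). The chaperone Hspa5 gave −0.50, Atf4 −0.64 and Syvn1 −0.37. Without 391 replicates 2 and 3, where pancreatic transcripts stood high, both medians lay further below 0. The ribosomal median was then −0.34 with 54 of 59 lower, and the stress median −0.28 with 20 of 21 lower. This was not particular to them: medians of other lists also fell, as of respiratory chain (−0.06 to −0.24) and sulphur genes (−0.02 to −0.33). Those of lipid droplet (−0.17 to −0.13) and cell cycle genes (0.01 to 0.02) rose. The median over all probes was then −0.016. The part of the pancreatic transcripts was not tested.

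Lipid droplet and fatty acid uptake genes, 29 measured, had 0 calls, with 24 lower in KO and a median of −0.17. The droplet coat proteins Plin5 (−0.99 ± 0.27, adjusted p = 0.23) and Plin2 (−0.83 ± 0.25, adjusted p = 0.31) were among the members named by p. The largest fall in the list was −1.40. Plin2 stood at 1.93, 1.95 and 0.94 in 391 and at 0.87, 0.76 and 0.95 in KO, so that 391 replicate 3 lay within the KO range. Dgat1 gave −0.27, and Vldlr, a lipoprotein receptor, 0.57. Pnpla7, a lysophospholipase outside the list, was called, at 1.2, 1.22 and 0.95 against 0.57, 0.53 and 0.61 (−0.97 ± 0.14, adjusted p = 0.014), a call lost in 3 of 6 refits without 1 array (up to 0.084).

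In 3 further genes that fasting or feeding is known to regulate, picked after their values were seen, 391 replicate 3 also lay lowest. Pdk4, which shuts off pyruvate oxidation in fasting, stood at 7.91, 5.2 and 0.91 in 391 and at 0.34, 0.46 and 0.47 in KO (−3.00 ± 0.79, adjusted p = 0.21). Without 391 replicate 3 it passed, as the 1 refit of 6 in which it did (adjusted p = 0.025). Insig2, a brake on sterol synthesis, stood at 3.43, 3.88 and 0.62 against 0.44, 0.66 and 0.26 (−2.26 ± 0.62, adjusted p = 0.23), and its second probe gave −1.82 (adjusted p = 0.096). G6pc, the last enzyme of glucose release, stood at 2.35, 1.8 and 0.85 against 0.84, 0.81 and 0.66 (−1.0 ± 0.38, adjusted p = 0.48).

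Of the 28 oxidation and ketone body genes that include Pdk4, 0 were called and the median was −0.10, with Fgf21 at −1.05, Bdh1 at 0.48 and Acot2 at −0.64. Of 22 genes of gluconeogenesis and the fasting response 0 were called and the median was 0.05, with Fbp1 at 0.29, Lpin1 at −0.86 and Klf15 at 0.39. Of 21 genes of cholesterol synthesis and uptake 0 were called and the median was 0.03, with Tm7sf2 at 0.59, Mvk at −0.46 and Srebf2 at −0.27. Of 23 genes of fatty acid synthesis 0 were called and the median was −0.07, with Agpat2 at −0.63, Acaca at −0.43, Mlxipl at −0.45 and Acacb at −0.64. Without 391 replicates 2 and 3 the medians of the first and second lists were −0.33 and −0.29.

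Bile acid genes, 22 measured, had 0 calls, 16 higher in KO and a median of 0.12. Without 391 replicates 2 and 3, 11 were higher, 11 lower and the median was −0.0016. Cyp7a1, the rate-limiting enzyme of bile acid synthesis, stood at 1, 0.39 and 1.12 in 391 and at 3.34, 2.96 and 2.6 in KO. The groups did not overlap, at 1.96 ± 0.43 (adjusted p = 0.10). Nr5a2, a nuclear receptor that drives it, gave 0.82 ± 0.29 (adjusted p = 0.42), Cyp27a1 −0.59 and Abcg8 0.48.

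The remaining lists held 0 calls each. Apolipoproteins and lipoprotein assembly, 21 measured, had a median of −0.07, with Lrp1 at 0.57, Apoe at −0.28 and Scarb1 at 0.73 beside Apoc2. Respiratory chain subunits, 49 measured, had a median of −0.06 with 31 lower (−0.24 with 46 lower without 391 replicates 2 and 3), with Ndufa8 at −0.51, Cox4i1 at −0.29, Cox6b1 at 0.27 and Uqcrq at −0.25. Cox6b2, the testis form of that subunit and no member of the list, was called with both its probes (0.56 and 1.57). Insulin signalling, 19 measured, had a median of 0.01, with Grb10 at 0.51, Akt2 at 0.32, Slc2a2 at 0.48 and Tsc22d3 at 0.52. Amino acid breakdown and the urea cycle, 31 measured, had a median of 0.02 (−0.14 without 391 replicates 2 and 3), with Agxt2 at 0.57, Prodh2 at 0.57, Aadat at 0.52 and Glud1 at −0.24. Sulphur amino acid and one-carbon metabolism, 23 measured, had a median of −0.02 with 12 lower (−0.33 with 17 lower without 391 replicates 2 and 3). Shmt1, which makes one-carbon units from serine, had the smallest p of that list. It stood at 1.13, 0.59 and 0.95 against 1.98, 1.65 and 1.57 without overlap (1.01 ± 0.20, adjusted p = 0.070), with Cbs at −0.46 and Cdo1 at −0.39. Iron and haem genes, 24 measured, had a median of −0.06 (−0.20 without these arrays). Hjv, a co-receptor that drives hepcidin, gave −0.56 ± 0.13 (adjusted p = 0.14), Fth1 −0.45, Trf −0.23 and Ftl1 −0.22. Liver transcription factors, 28 measured, had a median of −0.01 (−0.12 without these arrays), with Nr1i2 at −0.35, Nr1i3 at 0.38 and Pparg at 0.36.

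Fat offered arrays that had no part in choosing the called liver probes, and KO minus 391 ran the other way there. Of the 84 probes 66 had the opposite sign in fat, against 53.9% over all probes. In 46 the KO and 391 fat arrays did not overlap and lay in the opposite order (8.23% of all probes), and in 6 (7.14%) they did so in the same order, near the 5.49% of all probes. Of 30 called probes with at least a 2-fold difference in fat, 30 were opposite, against 417 of 561 (74.3%) over all probes. Across the 84 probes, which are not independent replicates, the liver and fat differences had a Pearson r of −0.65, and of −0.22 over all probes. In fat itself 8 probes were called (0.0172%), 7 of them opposite in liver, and 4 were called in both tissues, all opposite: Gdi2, Pttg1, Abca5 and Thg1l.

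Pttg1 stood in fat at 0.35, 0.31 and 0.28 in 391 and at 0.94, 1.04 and 1 in KO (1.67, adjusted p = 0.0062). These are close to the liver values with the labels turned. Psmd8 stood in fat at 0.13, 0.11 and 0.46 in 391 and at 1.38, 1.04 and 1.2 in KO, and Mrps12 at 0.42, 0.41 and 0.72 against 0.98, 1 and 1.13. A single array stood apart among the fat arrays labelled 391 as 1 did among the liver arrays labelled KO. Replicate numbers follow accession order, so the numbers of these arrays do not link them to 1 animal. BC018473 stood in fat at 20.83, 13.96 and 11.01 in 391 and at 1.11, 0.88 and 1 in KO. Epb41l2 stood there at 0.3, 0.15 and 0.24 against 1, 1.11 and 1.49.

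The interaction, which tests whether KO minus 391 differs between liver and fat, called 129 probes (0.277%), 120 of them with opposite signs. Among these were 46 of the 84 liver calls, 40 with opposite signs. Gdi2 (−6.46 ± 0.41, adjusted p = 4.1e-09), Cdkn1a (−5.62 ± 0.97, adjusted p = 0.0068) and Psmd8 (−4.93 ± 0.67, adjusted p = 0.00049) had the most negative values among named genes. BC018473 (5.83 ± 0.70, adjusted p = 9.4e-05), Gbp2b, an interferon-induced GTPase (3.31 ± 0.61, adjusted p = 0.015), and Abhd1 (3.04 ± 0.28, adjusted p = 1.5e-06) had the most positive ones among named genes. With the fat difference taken as 391 minus KO, the count was 9, of which 6 were among the 129. A1cf, Asic5, Ugt1a10, Krt72, Sult2a8 and Cyp2a4 differed in fat by between −0.16 and 0.06. With signal over background unknown, such flat values in fat may also come from probes that were not detected.

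**Figure D5:**
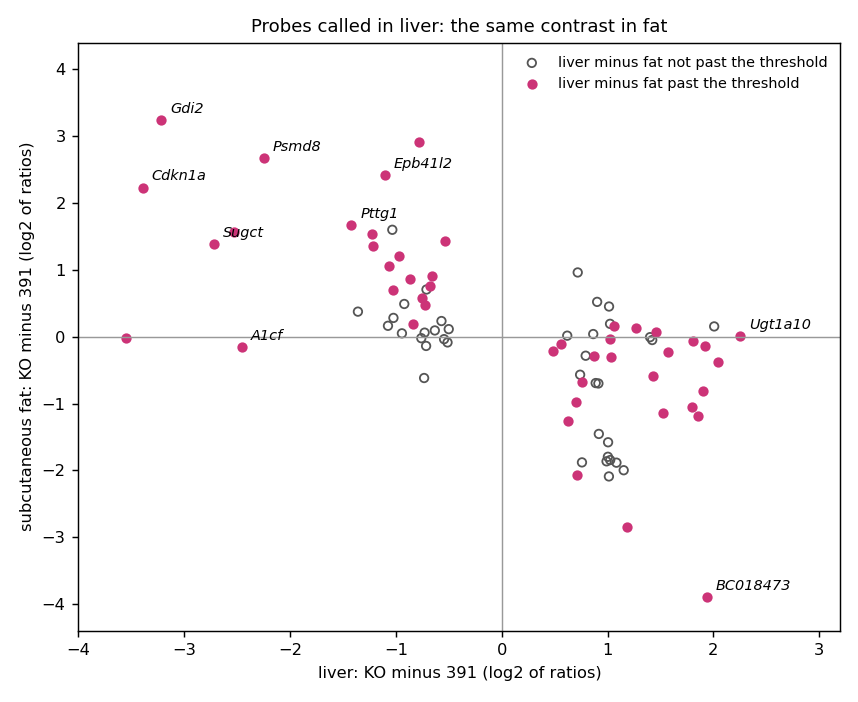
KO minus 391 in liver (x axis) against KO minus 391 in subcutaneous fat (y axis), both in log2 of ratios, for the 84 probes called in liver, filled where liver and fat differ past the threshold. Most points lie at the upper left and lower right, as Gdi2 at −3.22 and 3.24 and BC018473 at 1.94 and −3.89, and 46 of the 84 are filled.

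Called genes also lay near each other in the genome. In the RefSeq order of measured genes 25 of the 66 had another called gene within 20 genes, against 10.8% of all measured genes. The 66 count the 6 H2ac genes and the pair Ces3a and Ces3b as separate genes, though near-identical copies may share probes. The part of such copies in the 25 was not tested. Of all 19348 measured genes in that order 66 were called. Chromosome 11 held 10 called genes of 1501 measured and chromosome 13 held 10 of 770. Those of chromosome 13 were Gdi2, Sugct, H1f2, Cdkal1 and the 6 H2ac genes. Cdkal1, a tRNA-modifying enzyme, stood at 1.06, 0.89 and 0.95 in 391 and at 1.63, 1.71 and 1.55 in KO (0.76 ± 0.14, adjusted p = 0.042), a call lost in 5 of 6 refits without 1 array (up to 0.20). Pttg1, Ublcp1, Thg1l and Timd4 were among those of chromosome 11. Thg1l, which adds a guanine to histidine tRNA, stood at 1, 1.06 and 0.88 against 1.64, 1.59 and 1.54 in liver (0.70 ± 0.10, adjusted p = 0.0099), a call lost in 2 of 6 refits (up to 0.057). In fat Thg1l stood at 1.91, 1.77 and 1.65 in 391 and at 0.95, 0.84 and 0.93 in KO (adjusted p = 0.031). Ghr itself lies on chromosome 15, which held 1 called gene of 726 measured, Krt72. The part of strain background or of chromosome segments carried with the engineered gene in these differences was not tested, and the labels name no strain.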

How the data were processed

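The value table that the authors deposited holds 1 ratio per probe and array, 46643 probes on Illumina bead arrays of total RNA. Its unit was read from the values: every liver probe has a median of exactly 1 over the 15 liver arrays. No source used here gives the scanner settings, background correction or normalization behind it. Depth and detection are therefore unknown, and 3 arrays a group limit the precision. Ratios were turned into log2 with nothing added, and limma 3.58.1 in R 4.3.3 was fitted over all 15 liver arrays with moderated variances and Benjamini-Hochberg adjustment over all probes. Fat was fitted likewise, and the tissue difference in 1 fit of both. The tests were checked on simulated data. Of the probes, 32794 carried 1 gene symbol in the platform annotation, 55 several and 13794 none. Groups came from the labels, and replicates were numbered in accession order.

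The named genes are at most 12 rises and 12 falls with the largest called change, at most 4 members per gene list by p, the growth hormone axis genes and at most 3 genes each way for the tissue difference. Other genes were named after their values were seen. For a gene with several probes, list counts use 1 probe. The members and the 26 gene lists and 13 marker lists were chosen with earlier results of these data known. Marker medians not given with the results were −0.01 for hepatocyte, −1.53 for pancreatic acinar, −0.23 for islet, 0.09 for lymphocyte, −0.06 for neutrophil, −0.04 for endothelial, −0.11 for stellate, −0.10 for cholangiocyte, 0.13 for erythroid, −0.14 for adipocyte, −1.16 for muscle and −0.01 for kidney and adrenal markers. Alternatives were an offset of 0.1, median centring, quantile normalization, array weights, robust variances, filters on spread and on gene symbols, the 6 arrays alone and leaving out arrays.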

Additional observations from a re-analysis of the deposited data

Results flagged for a closer look

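The genes named as the largest rises, the largest falls or the largest tissue differences are covered here. In 21 of them KO minus 391 differed between liver and fat, by the limma interaction test at an adjusted p under 0.05. Other genes named above passed that test too, such as Nfil3, Apoc2 and Thg1l, and are not counted here. Values are liver minus fat on the log2 scale, and a positive one means that KO stood higher, relative to 391, in liver than in fat. Most of the 21 had opposite signs in the tissues. Of those that rose in KO liver and were lower in KO fat, BC018473 gave 5.83, Abhd1 3.04, Cptp 2.85, Per3 2.72 and Ppfibp1 2.67. Gbp2b gave 3.31, although its liver difference of 1.09 did not pass the test on its own (adjusted p = 0.19). Its fat ratios were 7.87, 4.42 and 6.25 in 391 and 3.37, 0.81 and 0.79 in KO.

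Of those that fell in KO liver and were higher in KO fat, Gdi2 gave −6.46, Cdkn1a −5.62, Psmd8 −4.93, Sugct −4.11 and H1f2 −4.09. Epb41l2 gave −3.53, Pttg1 −3.09, Mif4gd −2.58 and Mrps12 −2.11. The fat ratios of Cdkn1a were 0.45, 0.59 and 0.28 in 391 and 2.69, 2.04 and 1.4 in KO, and the fat groups did not overlap.

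The other 6 differed in liver with a small difference in fat: Ces3a gave 2.42, Ugt1a10 2.24, Ces3b 2.06, Asic5 1.88, Krt72 1.39 and A1cf −2.30. Their fat differences lay between −0.38 for Ces3a and 0.06 for Krt72.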

How the results depend on the processing

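The called count (84) and its split were within 1.5 times under an offset of 0.1, median centring, array weights, robust variances and the filter on gene symbols. Probes above the median spread gave 144 calls, 73 up and 71 down, 78 of at least 2-fold. Quantile normalization gave 126, with 56 up and 70 down against 46 and 38. The 6 arrays alone gave 35, with 14 up, 21 down and 25 of at least 2-fold. Of the 12 largest rises and 12 largest falls, Ces3a, Ces3b, Krt72, Sult2a8, H1f2, Psmd8, Spon2 and Mrps12 did not pass there (adjusted p from 0.055 to 0.32). Without 391 replicates 2 and 3 there were 173, with 127 down and 84 of at least 2-fold. An offset of 0.1 left 29 of at least 2-fold, against 45. The tissue difference (129) gave 345 calls under array weights, 444 under quantile normalization and 9 with the fat difference turned, which was chosen after seeing the data. So was the fit without WT replicate 3, the array that stood with KO in Ugt1a10 and Cptp: it gave 82 calls. Leaving out 1 array in turn gave 27 to 271 calls, 12 to 132 up, 11 to 139 down, 18 to 112 of at least 2-fold and 70 to 164 for the tissue difference.

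Among single probes of named genes, signs turned for values that were not called: Igfbp2 (−0.23 to 0.015 without 1 array, positive without 391 replicate 1), the second Ghr probe (−0.17 to 0.22 without 1 array, −0.037 without 391 replicates 2 and 3), the third Socs2 probe (−0.019 to 0.11 without 1 array, −0.0048 without 391 replicates 2 and 3) and Klf15 (−0.27 without 391 replicates 2 and 3). List medians that turned without 391 replicates 2 and 3 were those of gluconeogenesis (0.05 to −0.29), amino acid (0.02 to −0.14), cholesterol (0.03 to −0.11), ERK (0.02 to −0.07), insulin (0.0066 to −0.032), axis (0.0083 to −0.0056) and bile acid genes (0.12 to −0.0016), and of acinar, islet, muscle, adipocyte and erythroid markers (0.05, 0.0040, 0.01, 0.00094 and −0.06 then). Quantile normalization turned those of the axis (−0.0079), insulin (−0.0078) and sulphur (0.0021) lists. The causes were not tested. No paired analysis was run, because the labels give no replicate numbers. The fit of the tissue difference took liver and fat arrays as independent, and whether some came from the same mice was not tested. Signal over background is unknown, so dim probes could not be set apart.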
